A study of Rattus norvegicus with 180 samples.

Results

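The soleus was compared with the gastrocnemial muscle of the same 3 rats on 1-color miRNA arrays, with each soleus array set against the gastrocnemial array of the rat with the same number. The 6 arrays were chosen by the organ and rat number in their labels, out of 180 arrays in the series, and all 717 miRNAs of the array design were considered. The animals were male Sprague-Dawley rats aged 10 weeks, numbered 4, 5 and 6, which were perfused with saline under ether before the organs were collected and received no other treatment. The femoris muscle of the same rats gave 3 more arrays, which were placed beside the comparison and shared its estimate of the spread. Each array was hybridised with total RNA of a whole tissue piece (0.1 µg), so the fibre types, the vessels and the connective tissue of a muscle were measured together. Fewer cells of a type and less RNA per cell cannot be told apart in such samples. Which region of the gastrocnemial muscle or which head of the femoris muscle was sampled is not given in the sources used here. For rat 5 the sample titles and the source names of all 3 limb muscle arrays give different rat numbers, and the title was followed.

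In rodents the soleus is a postural muscle built mainly of slow, oxidative fibres, whereas the gastrocnemial muscle is built mainly of fast fibres. Some miRNAs are made almost only in striated muscle. Of these, miR-1 and miR-133 act in muscle growth and differentiation, and miR-206 is tied to skeletal muscle and to regeneration. Both miR-499 and miR-208b are carried inside myosin heavy chain genes, Myh7b and Myh7. The protein product of Myh7 belongs to slow and cardiac fibres. A mature miRNA finds its target transcripts mainly through its seed, the stretch of bases near its 5′ end, so miRNAs that share a seed can share targets.

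Mature sequences are shown first for the muscle miRNAs, since their similarity decides how far the arrays can tell them apart. All sequences and positions here are those of RefSeq for the rat assembly GRCr8, and 33 of the 35 array names looked up were matched. Letters run 5′ to 3′, and capitals mark the seed (bases 2 to 8).
miR-499 (miR-499-5p): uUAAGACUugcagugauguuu
miR-208b-3p: aUAAGACGaacaaaaggu
miR-206 (miR-206-3p): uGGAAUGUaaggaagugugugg
miR-1 (miR-1-3p): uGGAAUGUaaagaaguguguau
miR-133a (miR-133a-3p): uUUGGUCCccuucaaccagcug
miR-133b (miR-133b-3p): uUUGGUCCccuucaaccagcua
The miR-1 and miR-206 sequences share their seed and differ by 3 substitutions, which are A11G, A21G and U22G when miR-1 is read first and positions are counted from the 5′ end. The miR-133a and miR-133b sequences differ only by G22A, so each of their probes may also bind the other miRNA and their separate levels are uncertain. The hairpins of miR-206 (chr9:30590697-30590780) and miR-133b (chr9:30594582-30594665) lie on the same strand with their starts 3885 bases apart. The hairpins of miR-1 (chr18:2160327-2160413) and miR-133a (chr18:2157872-2157958) lie 2455 bases apart within the span of Mib1. The hairpin of miR-499 (chr3:164570612-164570676) lies within Myh7b, and that of miR-208b (chr15:32421615-32421726) lies within Myh7.

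Further sequences are shown for families and single miRNAs that were called in the comparison or lay just outside the threshold.
miR-30a (miR-30a-5p): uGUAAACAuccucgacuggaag
miR-30c (miR-30c-5p): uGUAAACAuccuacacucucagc
miR-30e (miR-30e-5p): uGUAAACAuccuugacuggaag
miR-29a (miR-29a-3p): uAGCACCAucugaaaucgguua
miR-29c (miR-29c-3p): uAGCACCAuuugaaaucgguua
miR-210 (miR-210-3p): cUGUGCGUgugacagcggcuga
miR-214 (miR-214-3p): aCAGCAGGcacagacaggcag
miR-199a-5p: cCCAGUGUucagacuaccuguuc
miR-675* (miR-675-3p): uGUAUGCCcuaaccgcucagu
The 3 miR-30 sequences share the seed GUAAACA, and miR-30a and miR-30e differ from each other only by C13U. Both miR-29 sequences share the seed AGCACCA. The hairpins of miR-199a and miR-214 lie within the span of Dnm3 on chromosome 13, that of miR-378 lies within Ppargc1b, and that of miR-675 (chr1:207161752-207161835) lies within H19.

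On an array a miRNA was taken as detected when more than 50% of its spots were well above background. By this measure 158, 166 and 132 miRNAs were detected in the soleus of rats 4, 5 and 6, and 168, 147 and 110 in the gastrocnemial muscle. Over the 6 arrays, 538 of the 717 miRNAs were detected on none, 46 on some without filling either group, and 133 on all 3 arrays of at least 1 muscle. These 133 were tested. Of them, 104 were detected on all 6 arrays, 26 passed only through the soleus and 3 only through the gastrocnemial muscle. For a miRNA that passed only through the muscle where it was higher, the filter itself favoured a difference. The skeletal muscle markers miR-1, miR-133a, miR-133b and miR-206 were detected on all 9 limb muscle arrays. The heart marker miR-208, the liver marker miR-122 and the epithelial markers miR-200a, miR-200b and miR-200c were detected on none.

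Signals were scaled array by array, and the direction of most small differences depended on that step. The 75th percentile signal before scaling was 1650.4, 3161 and 1362 in the soleus of rats 4, 5 and 6, against 1606, 1069 and 771 in the gastrocnemial muscle. After scaling over the 37 miRNAs detected on all 180 arrays, the median soleus minus gastrocnemial difference over the 133 miRNAs was -0.31 on the log2 scale. With the percentile taken over all miRNAs this median was 0.21, over the 103 miRNAs detected on all limb muscle arrays 0.05, with quantile normalization -0.04, with normexp background correction -0.52, and 0.08 in the normalized table of the authors. Differences are therefore also read against the median of -0.31.

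Most called miRNAs were lower in the soleus, among them miR-1, the miR-133 members, 4 of 8 miR-30 strands, miR-378 and miR-675*, while miR-210 and miR-214 were called higher. With limma and the rat as a block, 21 of 133 miRNAs were called lower in the soleus (15.8%) and 2 were called higher (1.5%), at a Benjamini-Hochberg adjusted p under 0.05, which made 23 calls (17.3%). Of the 2 called higher, miR-210 had passed the filter only through the soleus. The slow-fibre miRNA miR-499 had the largest positive difference and lay just outside the threshold. The 21 falls ran from 1.41-fold to 3.44-fold, with no overlap between the 3 soleus and the 3 gastrocnemial arrays for any of them. Over all miRNAs tested, 44 (33.1%) lay without overlap lower in the soleus and 2 (1.5%) without overlap higher, which were miR-499 and miR-27a. In all 3 rats, 76 miRNAs were lower (57.1%) and 9 higher (6.77%). Before adjustment, 54 miRNAs were lower and 6 higher at a p under 0.05.
The calls depended on the fit, on the rats and on the scaling. The 6 soleus and gastrocnemial arrays fitted alone, without the femoris arrays, gave 0 calls with limma (lowest adjusted p = 0.0621), with 51 miRNAs under an unadjusted p of 0.05. Without the rat as a block, 8 miRNAs were called lower and 0 higher, all 8 among the 21. Without rat 5 or without rat 6, 0 miRNAs were called in either direction, with 26 and 19 under an unadjusted p of 0.05, and without rat 4 the calls were 48 lower and 9 higher. With the percentile over all miRNAs the split turned to 4 lower and 30 higher. It was 2 lower and 6 higher over the miRNAs detected on all limb muscle arrays, and with normexp background correction it was 85 lower and 5 higher. Quantile normalization and the normalized table of the authors gave 0 calls with limma, with 40 and 45 miRNAs under an unadjusted p of 0.05. Of the 21 miRNAs called lower, 20 were in no scaling higher in the soleus. The exception was miR-20a, which stood at 0.022 with the percentile over all miRNAs. Quantile normalization set miR-1 and miR-133b to a difference of 0, because each held the same rank on all arrays. A single miRNA could not pass an exact test, since permutation of 3 against 3 arrays allows no p under 0.1 and sign flips over 3 pairs none under 0.25.

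**Figure D1:**
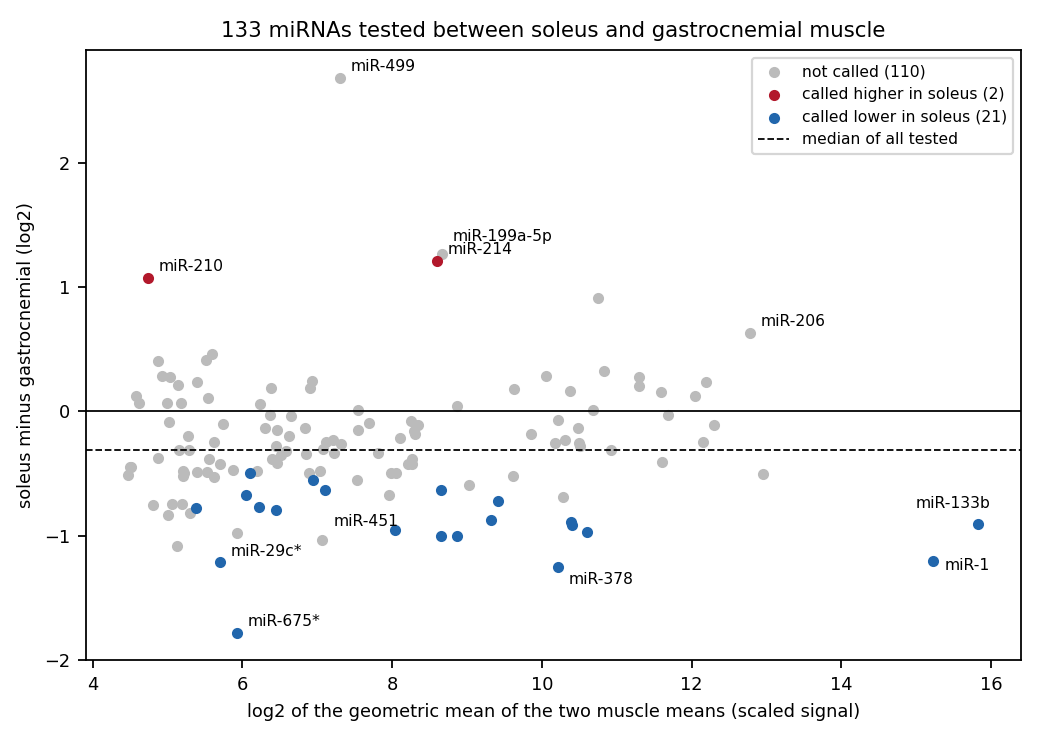
Each point is 1 of 133 miRNAs, with the log2 of the geometric mean of its soleus and gastrocnemial means on the horizontal axis and its soleus minus gastrocnemial difference (log2) on the vertical axis. Blue points are the 21 called lower in the soleus and red points the 2 called higher, the dashed line is the median of -0.31, and miR-499 lies farthest above it at 2.69.

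The myosin-gene miRNA miR-499 had the largest positive difference. Its scaled signal in the soleus was 214, 557 and 292 in rats 4, 5 and 6, against 88.0, 13.6 and 108.8 in the gastrocnemial muscle. The groups did not overlap, and the soleus was higher in 3 of 3 rats. The difference was 2.69 on the log2 scale (SE 0.84), or 6.44-fold, with a limma adjusted p of 0.0502, just outside the threshold. Rat 5 carried much of it: the differences within rats were 1.28, 5.35 and 1.42, and without rat 5 the mean was 1.35 with an adjusted p of 0.218. It was detected on 2 of 3 gastrocnemial arrays and on 1 of 3 femoris arrays, and it entered the test through the soleus alone, so the size of the difference rests in part on signals that were not above background. Under the other scalings and normexp it stayed positive, between 1.19 and 3.24, and it passed the threshold in 7 of 18 alternative analyses. Its opposite strand, miR-499*, was detected on none of these arrays.
The other miRNA of a slow myosin gene, miR-208b-3p, was near the floor. It was detected on 1 of 3 soleus arrays, in rat 5 at 16.9, and on 0 gastrocnemial and 0 femoris arrays, and it was not tested. The rat 5 soleus was also the array with the highest miR-499 signal. Of the 7 listed myosin-gene miRNAs, these were the only 2 detected on any of the 6 arrays.

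For miR-206 the difference was smaller and the groups overlapped. Its signal was 6204, 8666 and 10927 in the soleus of rats 4, 5 and 6, and 5056, 3730.4 and 8316 in the gastrocnemial muscle. The soleus was higher within each rat, but the gastrocnemial muscle of rat 6 lay above the soleus of rat 4. The difference was 0.64 (SE 0.20, 1.55-fold, limma adjusted p = 0.0502), or 0.94 above the median of all tested miRNAs. Rat 5 carried much of it, with differences within rats of 0.30, 1.22 and 0.39, and without rat 5 the difference was 0.34 (adjusted p = 0.313). It stayed positive under the other scalings and normexp, between 0.65 and 1.16, and passed the threshold in 7 of 19 alternative analyses.

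All other tested muscle-enriched miRNAs were lower in the soleus. Of 8 listed strands, 5 were tested and 4 were called lower in the soleus (miR-1, miR-133a, miR-133a* and miR-133b), beside 15.8% of all tested miRNAs, with a list median of -0.90 beside -0.31. None of the 4 was called in the fit over all 55 organs or with the percentile over the miRNAs detected on all limb muscle arrays.
The signal of miR-1, a broad striated muscle miRNA, was 37675, 18587 and 20837 in the soleus and 48184, 67983 and 54598 in the gastrocnemial muscle. All soleus arrays lay under all gastrocnemial arrays, and the difference of -1.21 (SE 0.26, 2.31-fold lower, limma adjusted p = 0.0293) was the fourth largest fall among the calls. For miR-133b the soleus gave 56839.8, 33821 and 38335, and the gastrocnemial muscle 70632, 84364 and 80891.
This was a difference of -0.90 (SE 0.20, limma adjusted p = 0.0293), again without overlap. For miR-133a the values were 1379, 917 and 686 against 1705, 2302 and 1418, and for the opposite strand miR-133a* 1455, 937 and 941 against 1682, 2503 and 2312. Both strands of that hairpin were thus lower by nearly the same amount, -0.89 and -0.97. The remaining strands miR-1*, miR-133b* and miR-206* were detected on none of the 6 arrays.
A ratio between miRNAs on an array does not change with a scaling by 1 factor per array, although it does with quantile normalization. The log2 ratio of miR-206 to miR-133b, its neighbour on chromosome 9, was higher in the soleus by 0.61, 2.53 and 1.47 in rats 4, 5 and 6 (mean 1.54 ± 0.96, SD, n = 3). The log2 ratio of miR-206 to miR-1, which share the seed shown above, was higher by 0.65, 3.09 and 1.78 (mean 1.84 ± 1.22, SD, n = 3). The signals named miR-206, miR-133b and miR-1 thus changed unequally in each of the 3 rats, by the least in rat 4. Since the miR-133b probes may also bind miR-133a, the first ratio need not be that of the neighbouring miRNAs. With quantile normalization, where miR-1 and miR-133b were at 0, the difference left was that of miR-206 itself, 0.75.

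**Figure D2:**
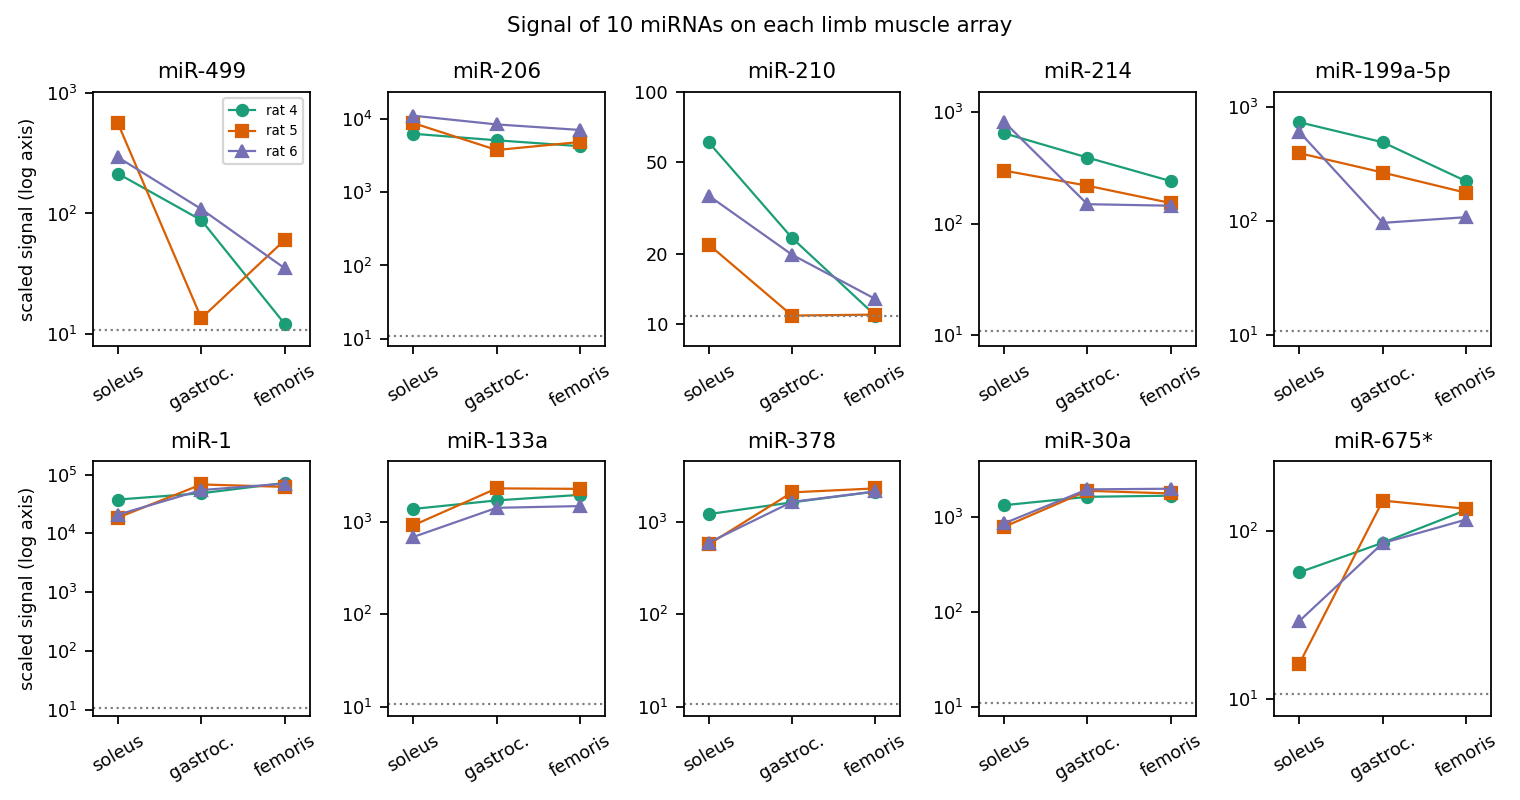
Scaled signal (log axis) of 10 miRNAs in soleus, gastrocnemial and femoris muscle, with 1 marker and line per rat and the floor as a dotted line. The top row shows miR-499, miR-206, miR-210, miR-214 and miR-199a-5p, highest in the soleus of each rat, and the bottom row shows miR-1, miR-133a, miR-378, miR-30a and miR-675*, lowest in the soleus of each rat.

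The deepest falls outside the muscle-enriched list were those of miR-675*, miR-378 and miR-29c*. The strand miR-675* is made from H19, an imprinted noncoding RNA that is high in fetal and in adult skeletal muscle. Its signal was 57.0, 16.3 and 29.3 in the soleus and 85.5, 152.2 and 85.0 in the gastrocnemial muscle. The arrays did not overlap, and the difference of -1.78 (SE 0.41, limma adjusted p = 0.0293) was the largest fall among the 133 miRNAs, ranging from -0.58 in rat 4 to -3.22 in rat 5. Without rat 5 it was -1.06 (adjusted p = 0.218), and that of miR-338 was then larger at -1.41. One of its 4 probe sequences lay at the floor throughout and gave a difference of 0, and for the other 22 called miRNAs all probe sequences pointed one way. Its opposite strand miR-675 was detected on none of the 6 arrays.
In the gene Ppargc1b, which encodes a coactivator of mitochondrial genes, lies miR-378. Its signal was 1208, 569 and 594 in the soleus against 1619, 2076 and 1637 in the gastrocnemial muscle, a difference of -1.25 (SE 0.27, 2.38-fold lower, limma adjusted p = 0.0293) without overlap. The opposite strand miR-378* gave 380.5, 255 and 335 against 481, 448 and 565 and was called lower as well (-0.64, SE 0.15).
Of the falls, those of miR-378 and miR-675* were also called with the percentile over all miRNAs and with that over the miRNAs detected on all limb muscle arrays.
The list of miRNAs tied to oxidative metabolism was split. Of its 12 members 11 were on the array and 9 were tested, with miR-378 and miR-378* called lower, miR-210 called higher and a median of 0.16, beside 15.8% lower, 1.5% higher and a median of -0.31 over all tested miRNAs. The list median was 0.68 with the percentile over all miRNAs and -0.023 with normexp. One of its members was miR-27a, named here after its values were seen, with 1852, 2118 and 2118 in the soleus and 1776, 1593 and 1479.5 in the gastrocnemial muscle. The arrays did not overlap, but the difference was 0.33 (SE 0.16, limma adjusted p = 0.138) and it was not called.

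The miR-30 family, which is common in differentiated tissues, was lower throughout. All 8 tested strands were lower in the soleus in 3 of 3 rats, beside 57.1% of all tested miRNAs, and all 8 kept a negative difference under each of the 6 other scaling and background settings. The list median was -0.82, or 0.51 below that of all tested miRNAs, and 4 of the 8 were called (miR-30a, miR-30a*, miR-30b-5p and miR-30d), beside 15.8% of all tested miRNAs. None of these 4 was called with either other percentile. For miR-30a the signal was 1339, 791 and 860.3 in the soleus and 1642, 1900.3 and 1968 in the gastrocnemial muscle (-0.92, SE 0.22, limma adjusted p = 0.0293).
The largest difference of the family was that of miR-30d, at 429, 263 and 301 against 530.2, 749 and 688. Its arrays did not overlap, and it stood at -0.69 relative to the median of all tested miRNAs. The member miR-30c had a difference of -0.69 and an adjusted p of 0.0502. For miR-30e, whose sequence differs from that of miR-30a by a single base, the difference was -0.59 with an adjusted p of 0.089.
In the miR-29 family, which targets collagen transcripts, 4 strands were tested and 2 were called, both from the miR-29c hairpin, beside 15.8% of all tested miRNAs. The other 2, miR-29a and miR-29b, turned positive in 5 of the 6 other scaling and background settings. The strand miR-29c* was at 49.3, 25.3 and 28.7 in the soleus and 63.0, 98.1 and 72.6 in the gastrocnemial muscle (-1.21, SE 0.27, limma adjusted p = 0.0293). For miR-29c the values were 675, 521 and 409 against 886, 1009 and 718 (-0.72, SE 0.18). Among the 133 miRNAs, 9 hairpins had a strand and its starred opposite strand both tested. In 4 of them (miR-29c, miR-30a, miR-133a and miR-378) both strands were called lower, and in the other 5 neither was. Hairpins whose strands are named 5p and 3p, such as miR-199a with neither strand called, are not in this count.

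The remaining miRNAs called lower in the soleus came from other clusters or were single calls. In the miR-17-92 and related clusters, which are linked to cell proliferation, 6 members were tested and miR-19b (-0.55), miR-92a (-0.63) and miR-20a (-0.50) were called, beside 15.8% of all tested miRNAs. The hairpins of these 3 lie within 252 bases of each other on chromosome 15, and miR-19b and miR-92a have a second copy on chromosome X that the probes cannot tell apart. All 6 members were lower in 3 of 3 rats, as were 57.1% of all tested miRNAs, but only 2 of 6 stayed negative with the percentile over all miRNAs. The signal of miR-19b was 112, 110.1 and 83.9 in the soleus and 161, 156 and 130.2 in the gastrocnemial muscle, and its differences of -0.52, -0.50 and -0.63 varied less between rats than those of the muscle miRNAs.
From the imprinted Dlk1-Dio3 region, a large maternally expressed miRNA cluster, 15 of 95 listed strands were tested, and miR-136 (-0.77) and miR-329 (-0.67) were called lower, a share under the 15.8% of all tested miRNAs. The median of that list was -0.37, close to the -0.31 of all tested miRNAs. Single calls were miR-365 (2.01-fold lower), which is known from brown adipocytes, miR-28 (-0.79), whose hairpin lies within Lpp, and miR-186 (-0.77), whose hairpin lies within Zranb2. The signal of miR-365 was 428, 245 and 197 in the soleus against 543, 702 and 438.

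**Figure D3:**
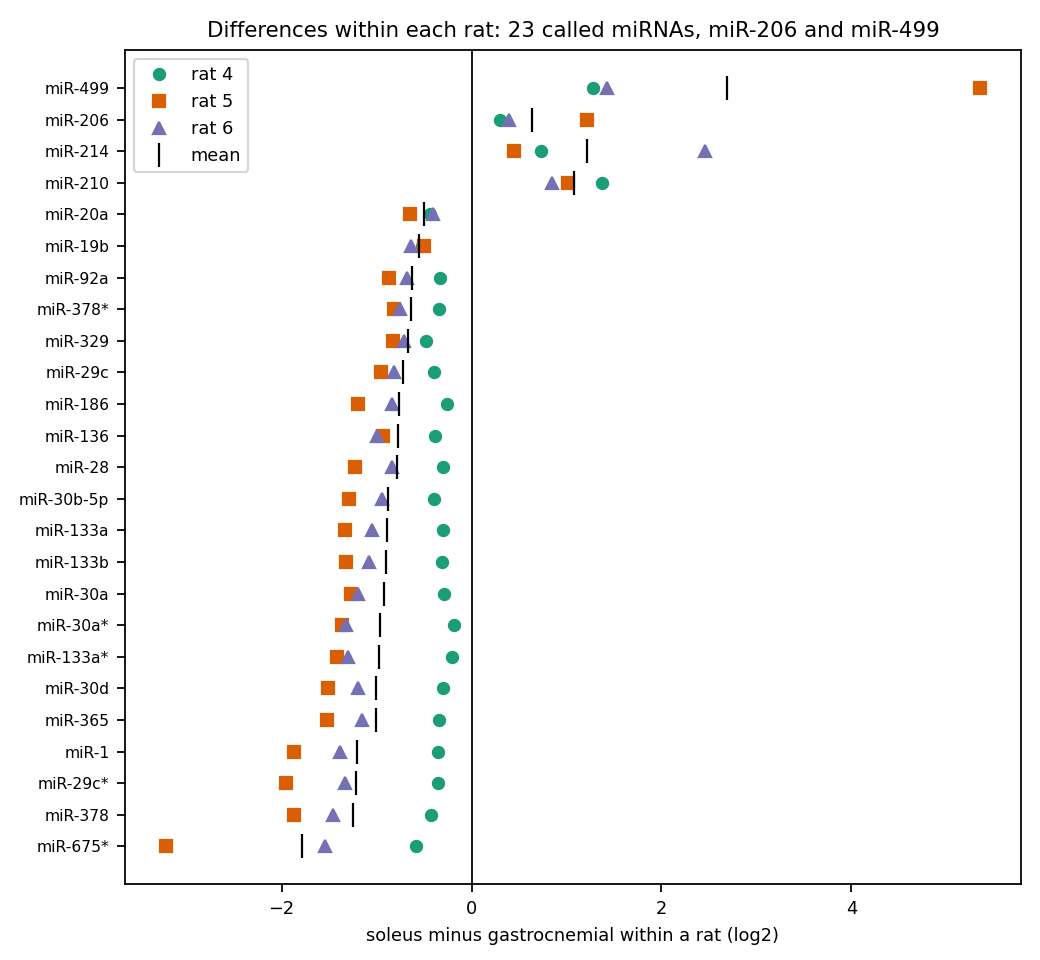
Soleus minus gastrocnemial difference (log2) within rats 4, 5 and 6 for the 23 called miRNAs, miR-206 and miR-499, with a vertical tick at the mean. For the 21 miRNAs called lower the points of rat 4 lie between -0.58 and -0.18, those of rat 5 reach -3.22 and those of rat 6 reach -1.54.

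Rat 4 differed from the others in size but not in direction for the miRNAs called lower. The called rises did not share this: miR-210 was highest in rat 4 at 1.37, and miR-214 was at 0.73 in rat 4 and 0.45 in rat 5. The median difference of the 21 miRNAs called lower was -0.34 in rat 4, -1.29 in rat 5 and -1.05 in rat 6, beside medians over all 133 of -0.20, -0.48 and -0.24. Before scaling, the 75th percentile signals of soleus and gastrocnemial muscle were 1650 and 1606 in rat 4. They were 3161 and 1069 in rat 5, and 1362 and 771 in rat 6. Whether this imbalance between arrays had a part in the sizes was not tested. The soleus and gastrocnemial arrays of a rat lay on the same slide, and the 3 rats on different slides, so rat and slide cannot be told apart and the values within each rat are also those within each slide. Along the first principal component of the 9 limb muscle arrays (53.9% of the variance), the soleus arrays lay at -2.95, -6.67 and -5.58 and the gastrocnemial arrays at -0.22, 3.16 and 1.63. In rat 4 the muscles were closest to each other.

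The 2 miRNAs called higher, miR-210 and miR-214, lay outside the rule for named miRNAs because their arrays overlapped, and they were picked once their values were known. The hypoxia-responsive miR-210 had a signal of 60.5, 21.9 and 35.6 in the soleus and 23.4, 10.8 and 19.8 in the gastrocnemial muscle, where only 1 of 3 arrays detected it. The soleus was higher within each rat, by 1.37, 1.02 and 0.85 (mean 1.08, SE 0.27, limma adjusted p = 0.0293). It entered the test through the soleus alone, so the size and the p rest on gastrocnemial signals that were mostly not above background, and rat 5 was at the floor there. With normexp background correction its direction turned to -0.36.
The signal of miR-214, a miRNA of fibroblasts and other mesenchymal cells, was 650.3, 300.3 and 822 in the soleus and 393, 219.8 and 150.0 in the gastrocnemial muscle. The difference of 1.21 (SE 0.35, limma adjusted p = 0.0494) was highest in rat 6 at 2.45. Without rat 6 it was 0.59.
Its neighbour miR-199a-5p was not called. The soleus arrays were at 733, 393 and 603 and the gastrocnemial arrays at 489.6, 266 and 96.3, a difference of 1.26 (SE 0.38, limma adjusted p = 0.0502). It was detected on 2 of 3 gastrocnemial arrays and had passed the filter only through the soleus. For miR-199a-3p the difference was 0.92 (adjusted p = 0.0689). The 3 tested members of the fibroblast list were higher in the soleus in 3 of 3 rats, beside 6.77% of all tested miRNAs, with a median of 1.21 beside -0.31. Of the 3, only miR-214 was called (1.5% of all tested miRNAs were called higher). Rat 6 carried much of this: without it the difference was 0.57 for miR-199a-5p and 0.36 for miR-199a-3p.

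These fibroblast miRNAs are markers of another cell type, and their summed signals in soleus and gastrocnemial muscle overlapped. The sum was between 2290 and 4198 in the soleus, between 814 and 2991 in the gastrocnemial muscle and between 884 and 1589 in the femoris muscle. Red cell miR-451 was lower in the soleus in 3 of 3 rats, at 168, 83.1 and 38.8 against 284, 188 and 86.9 (-1.03, SE 0.42, limma adjusted p = 0.0954), and its partner miR-144 was detected on none of the arrays. The summed endothelial markers miR-126 and miR-126* were between 1219.9 and 1609 in the soleus and between 1489.6 and 1988 in the gastrocnemial muscle. Of 4 leukocyte markers, 3 were lower in the soleus in 3 of 3 rats, with sums of 443 to 463 against 540.1 to 609, where 57.1% of all tested miRNAs were also lower in 3 of 3 rats. The leukocyte list median of -0.32 was close to the -0.31 of all tested miRNAs. The smooth muscle markers summed to 1333 to 1363 in the soleus and 1392 to 1872 in the gastrocnemial muscle. With the percentile over all miRNAs, the tested endothelial, smooth muscle and leukocyte members were all higher in the soleus. Of 4 nerve markers only miR-338 was detected, at 41.1, 31.1 and 47.3 in the soleus against 161, 34.0 and 85.1. The part of these cell types in the called differences was not tested.

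Several families lay above the median without a call. The 8 tested let-7 members ran from -0.31 to 0.15 with a median of -0.12. The 5 tested members of the miR-99, miR-100 and miR-125 families had a median of 0.19, and the 5 of the miR-15 and miR-16 family 0.01. Relative to the median of all tested miRNAs these lists stood at 0.19, 0.50 and 0.32, beside -0.59 for the muscle-enriched list and -0.51 for the miR-30 family. The direction of such small differences followed the scaling: 5 of 8 let-7 members were below 0 in the main scaling, 6 with normexp and 0 with the percentile over all miRNAs. The signal of miR-22, an abundant muscle miRNA, was 7913, 4998 and 7117 against 8079.7, 9496 and 10444 (-0.50, adjusted p = 0.0803), and with the percentile over all miRNAs its difference turned to 0.018.

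**Figure D4:**
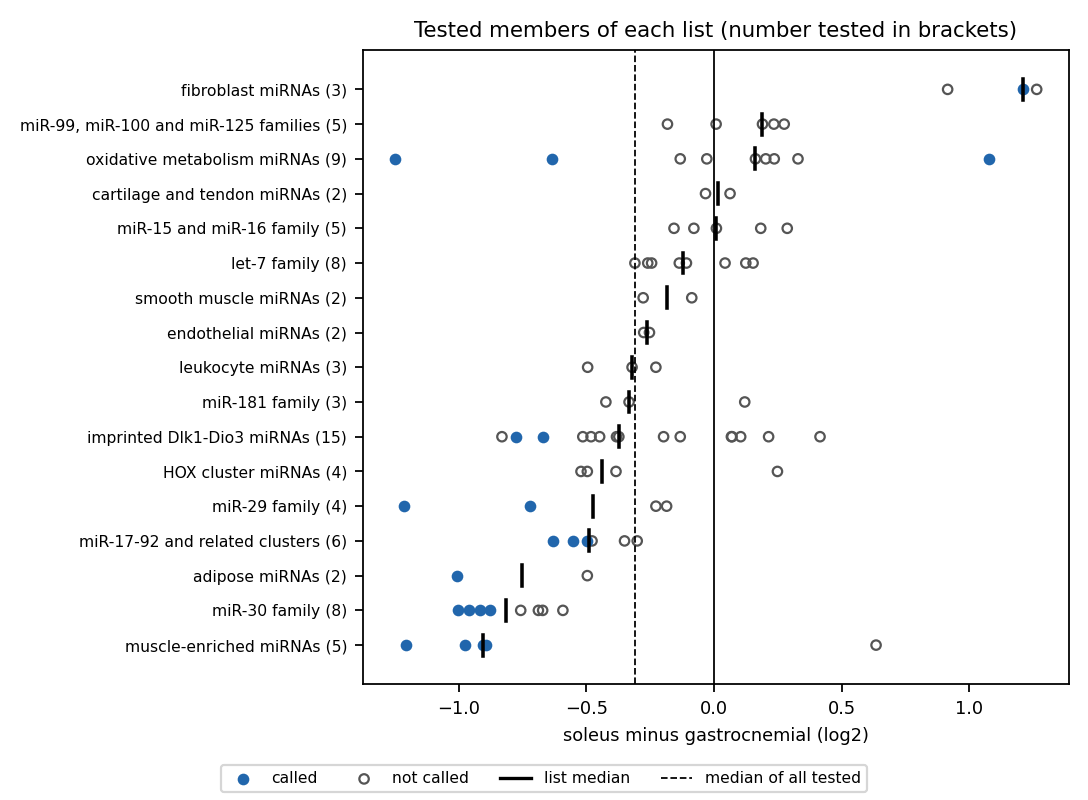
Soleus minus gastrocnemial difference (log2) of each tested miRNA by list, with filled points called, open points not called, a tick at the list median and a dashed line at the median of all tested miRNAs (-0.31). The muscle-enriched and miR-30 lists have medians of -0.90 and -0.82, and the fibroblast list 1.21.

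The femoris muscle was placed beside both muscles in the same fit. Between soleus and femoris muscle, 46 miRNAs were called lower (34.6%) and 11 higher (8.27%) in the soleus, or 57 in all (42.9%). This count shares the soleus arrays with the main comparison, and without rat 6 it fell to 0 with limma, with 47 under an unadjusted p of 0.05, and without rat 5 to 23. Between gastrocnemial and femoris muscle 0 miRNAs were called with limma, and 12 had an unadjusted p under 0.05.
For miR-499 the femoris signal was 12.2, 60.3 and 35.2, which put the soleus higher by 3.46 (SE 0.84, limma adjusted p = 0.0136). It was detected on only 1 of 3 femoris arrays, so this size rests on signals that were mostly not above background. For miR-206 it was 4203, 4799 and 6991, with the soleus higher by 0.69 (SE 0.20, adjusted p = 0.0271). The 21 miRNAs called lower against the gastrocnemial muscle differed from the femoris muscle by -2.10 to -0.55. Their gastrocnemial minus femoris differences ran from -0.33 to 0.15.
In the femoris muscle miR-1 was at 72141, 61861 and 70215, miR-378 at 2118, 2292 and 2125, and miR-675* at 134, 136 and 117. All these lay above the soleus arrays. The 3 femoris arrays of miR-214 (242, 154 and 145) lay under the lowest soleus array at 300.3.

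Across the 55 perfused organs, the 2 muscles held high places for most of these miRNAs, given here as a description. For miR-499 the highest mean was in heart atrium (587 ± 120, SD, n = 3), followed by heart interventricular septum (542 ± 112), the tissue labelled interseptum (362 ± 60.2) and soleus (354 ± 180). The range of the soleus, 214 to 557, overlapped those of all 3, and the ranges of both heart regions overlapped each other. Gastrocnemial muscle stood sixth at 70.1 ± 50.1, after brown adipose tissue (89.6 ± 15.0), with overlapping ranges.
The soleus held the highest mean of miR-206, 8599 ± 2362, ahead of gastrocnemial muscle (5701 ± 2360), femoris muscle (5331 ± 1468) and interseptum (4806 ± 1016). Its range overlapped those of both other limb muscles and lay above that of interseptum. In both heart regions miR-206 was at the floor of 10.8 on all arrays.
For miR-1 the order was femoris (68072 ± 5465), gastrocnemial (56922 ± 10102), interseptum (38406 ± 7332) and soleus (25699.7 ± 10432). The heart atrium followed at 14798 ± 1059, under the lowest soleus array of 18587. For miR-675* femoris, gastrocnemial muscle, interseptum and soleus (34.2 ± 20.8) took the first 4 places. For miR-378 the soleus ranked ninth at 791 ± 362, and brown adipose tissue was first at 5200.2 ± 584. For miR-214 the soleus (591 ± 266) came second after skin (744 ± 89.9), with a range of 300.3 to 822 that overlapped those of skin, trachea and aorta.

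**Figure D5:**
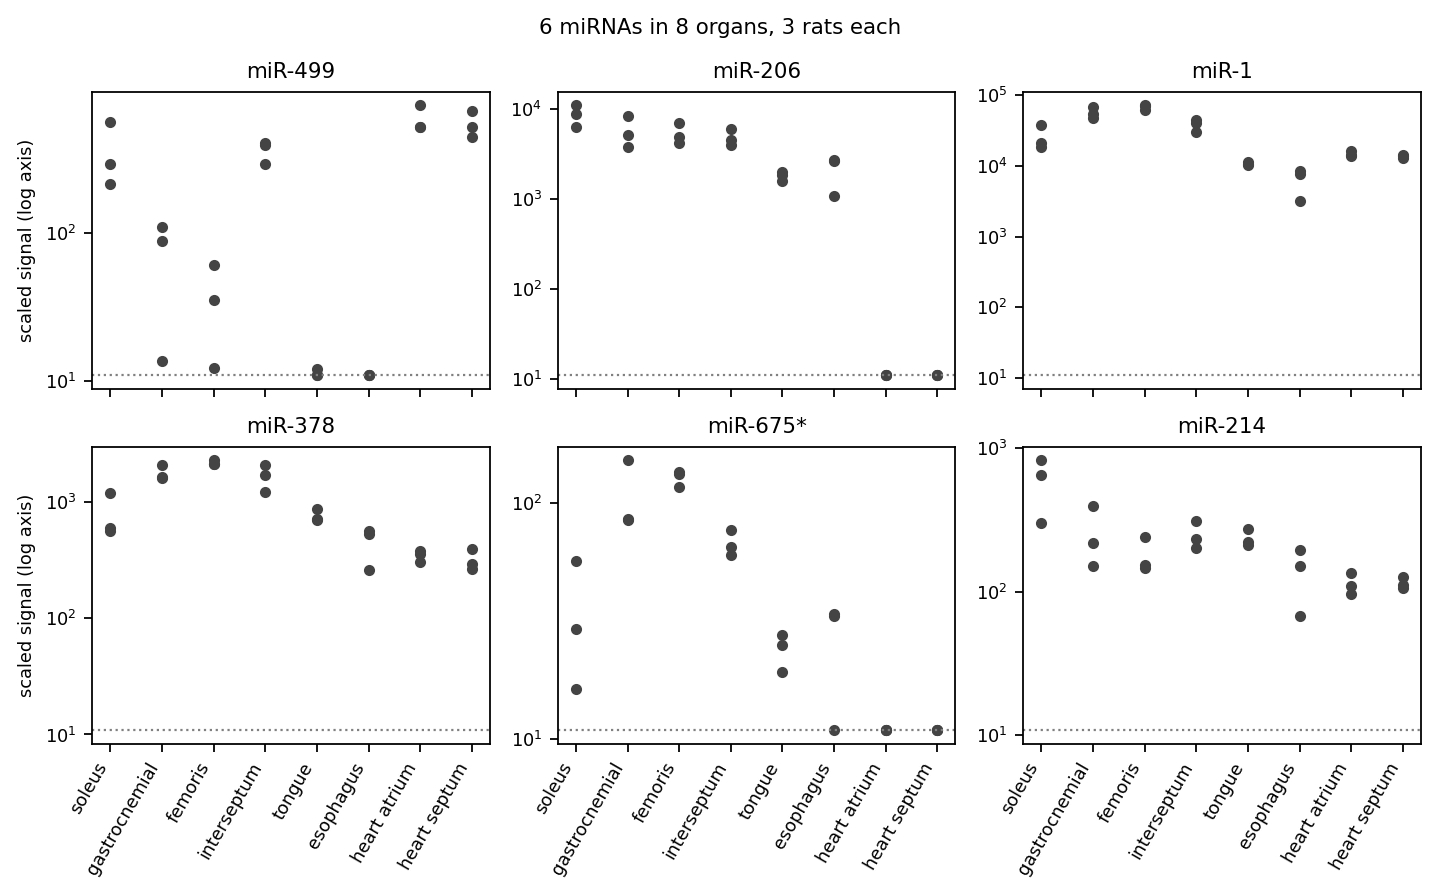
Scaled signal (log axis) of miR-499, miR-206, miR-1, miR-378, miR-675* and miR-214 in 8 organs, with 1 point for each of 3 rats and the floor as a dotted line. Soleus lies with the heart regions and interseptum for miR-499, and with the other limb muscles, far above the heart regions at the floor, for miR-206.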

How the data were processed

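For each array the authors deposited the output of Agilent Feature Extraction 10.7.3, with a processed intensity (background already subtracted) at each of 14340 miRNA spots, and a table of normalized intensity values that their methods describe as adjusted to the 75th percentile. The genome build is not given in the sources used here, and the array names follow miRBase 15.0 and 16.0 per the study's methods. Here spots marked as outliers were left out, and spots were averaged per probe sequence and then per miRNA. Each array's 75th percentile was taken over the 37 miRNAs detected on all 180 arrays and brought to a common value, and signals were set to a floor of 10.8 and taken to log2. The 9 limb muscle arrays were fitted with limma 3.58.1 (R 4.3.3), with the rat as a block and two-sided moderated tests, and p-values were adjusted by Benjamini-Hochberg over the 133 miRNAs tested. The number of arrays limits the precision (median SE 0.18 on the log2 scale), and no spot was saturated (0 on the limb arrays).

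Arrays with the same number in the title were taken to come from the same rat. After removal of the muscle means, soleus and gastrocnemial arrays of rats 4, 5 and 6 correlated by -0.13, 0.05 and 0.48. Soleus and gastrocnemial arrays of different rats correlated by -0.41 to 0.40, a range that holds the values of rats 4 and 5. The 3 limb arrays titled rat 5, among 8 such arrays on 1 slide, carry rat 6 in another label. The named miRNAs were miR-499 and miR-206, all muscle-enriched and myosin-gene miRNAs, up to 12 called rises and 12 called falls with the largest differences and no overlap, the 3 brightest of each muscle, the 2 brightest of each other list and all opposite strands. Some of these are given only through their lists. Of the miRNAs named, miR-210, miR-214, miR-27a and some smaller falls lie outside the rule. Members and lists were chosen with earlier results of these data known. Array names were matched to RefSeq strands by hand. The scanner files hold no mean signal column, so normexp (offset 50) used the median signal and median background. Alternatives changed the scaling, background, floor, filter, fit and rats. The fit was tested on simulated data, the 21 control rows of the table were not used, and 0 columns were left unmatched.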

Additional observations from a re-analysis of the deposited data

How the results depend on the processing

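For 38 miRNAs followed through 19 alternatives, which were the 23 called ones and 15 others chosen with their values known, the difference from the gastrocnemial muscle kept its direction and its side of the threshold in 443 results, lost the call in 215, gained one in 57 and changed sign in 4: miR-210 was at -0.36 with normexp, and miR-20a, miR-22 and miR-196a were at 0.022, 0.018 and 0.025 with the percentile over all miRNAs. Others with small differences, such as let-7a, let-7f and miR-29a, changed sign in 4, 4 and 5 of 6 scaling and background settings. The main counts were 21 lower and 2 higher. Without the rat as a replicate block they were 8 and 0, and the 6 arrays alone gave 0 and 0. The slide as a random block gave 32 and 4. A fit over all 55 perfused organs gave 30 and 4, with 15 of the 21 falls among them, and without miR-1, miR-133a, miR-133a* and miR-133b. The percentile over all miRNAs gave 4 lower and 30 higher, and that over the miRNAs detected on all limb muscle arrays gave 2 and 6. Centring on the median of the latter, chosen after seeing the data, also gave 2 and 6. Quantile normalization and the normalized table of the authors gave 0 and 0. A floor 4 times as high gave 4 and 0, and a floor lowered by the same factor gave the same 21 and 0. Normexp gave 85 lower and 5 higher. With every miRNA detected on at least 1 of 180 arrays, 45 were lower and 224 higher among 425 tested, many of them at the floor. The median difference there was 1.78e-15, which is the size of a rounding error. These counts thus include rounding at the floor and are not read as differences in signal. Leaving out 1 rat gave 0 to 48 lower and 0 to 9 higher. Between gastrocnemial and femoris muscle 2 miRNAs were called in the fit over all organs and 1 with each of the percentile over all miRNAs, the percentile over those detected on all limb muscle arrays, and the added centring, against 0 as reported. Between soleus and femoris muscle the count of 57 became 33 with the higher floor and 86 with normexp, and 0 to 63 when 1 rat was left out. With the widest filter it was 288, where the median difference was also 1.78e-15 and the count has the same limit. With 3 rats, a common difference in RNA quality or labelling between the muscles was not tested.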
